A study of Mus musculus with 12 samples.

Results

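The genes described here encode structural and surface proteins of central myelin, namely Mbp, Mobp, Mal, Cldn11, Cnp, Ermn, Mag, Mog and Opalin. They are a list of symbols with no threshold on their values, but the list was made with earlier results of these data known. Each gene was read from the locus of the deposited table that carried its symbol. Where there were several, the locus with the highest mean level was used. All 9 were found among the 33864 loci of the table, and all 9 passed the expression filter (1 FPKM or more in at least 3 of 12 libraries), as did 13803 loci in all. Levels are in FPKM, which corrects the number of sequenced fragments for transcript length and for library depth, and so may be compared between genes.

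Polyadenylated RNA was sequenced from subcortical white matter. There were 12 mice, each with its own library, and 3 mice in each of 4 groups. ErbB2V664E mutants (Sox10-tTA;TRE-ErbB2V664E) and their littermate controls (TRE-ErbB2V664E) were given doxycycline between postnatal days 21 and 30 and were taken at day 30. dnEGFR mutants (Sox10-tTA;TRE-dnEGFR) and their littermate controls (TRE-dnEGFR) were given it between days 21 and 35 and were taken at day 35. The title of the series gives the question, which is how activating or inhibiting ErbB receptors in oligodendroglia affects gene expression in white matter. The transactivator is driven by Sox10, a transcription factor gene of the oligodendrocyte lineage, ErbB2V664E is an ErbB2 receptor with a mutation in its transmembrane segment that makes it active, and dnEGFR is an EGF receptor of the dominant-negative kind, which blocks signalling by the normal one. All 12 mice carried a responder transgene and received doxycycline, and the transactivator was never present without a responder, so the effects of these components cannot be told apart. Between the lines, the transgene, the age and the length of treatment cannot be told apart. The sources used here do not say if doxycycline switched the responder on or off. The labels name a littermate control for each mutant, which makes 3 litters in the ErbB2V664E line (4, 5 and 6) and 3 in the dnEGFR line (1, 2 and 3). Values per library are given in that order of litters throughout.

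Myelin is the spiral of membrane that oligodendrocytes wrap around axons. In compact myelin the cytoplasmic faces of the membrane are held together by basic proteins, while channels of cytoplasm, the junctions between turns and the innermost and outermost turns hold other proteins that shape the sheath and contact the axon or the surroundings. These genes are switched on as oligodendrocytes mature, under transcription factors such as SOX10 and MYRF, and are widely used as markers of mature oligodendrocytes and of myelin.

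The libraries held an estimated 16596881 to 24739626 fragments, so that 1 FPKM in a transcript of 2 kb stood for 33.2 to 49.5 fragments. Pearson correlations between replicates of a group, across loci, were 0.910 to 0.926. Erbb2 was at 0.833 to 0.894 FPKM in ErbB2V664E mutants and 0.772 to 0.970 FPKM in their controls, and Egfr was at 2.77 to 3.08 FPKM in dnEGFR mutants and 2.64 to 3.32 FPKM in their controls. The labels do not say which part or species of the receptors the transgenes hold, so these levels do not check the genotypes. Neuronal transcripts were present in all libraries, with Snap25, a synaptic protein gene, at 74.2 to 277 FPKM, so the pieces held more than glia.

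In ErbB2V664E mutants the levels of most of these genes lay below those of their littermate controls. Mag, a sugar-binding adhesion molecule of the innermost myelin turn, was the 1 member that passed the test over all loci. In this comparison 0.275% of all loci passed. The call of Mag was kept in 6 of 23 alternative settings and lost in 17, among them litter as a block (adjusted p = 0.109 in limma). Mag was at 43.4% of the control mean. Ermn was at 41.3%, Mog at 51.7%, Cnp and Opalin at 57.4%, Cldn11 at 59.6%, Mobp at 67.0% and Mbp at 67.7% of it, and Mal was above it at 130%. In dnEGFR mutants no member passed the test, where 0.0942% of all loci did. The mutants' values overlapped those of the controls for all 9 genes. Of all loci in that line, 4.57% had every mutant below every control and 5.58% had every mutant above, so this count is near the background. In bulk tissue, fewer oligodendrocytes and less RNA per oligodendrocyte cannot be told apart.

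The sequences before the transcription starts were inspected because these genes share regulators in the lineage. RefSeq promoter windows (build GRCm38.p6) matched 8 of the 9 members, and Mbp was not matched. Each window holds the 250 bases before the start furthest upstream. The windows were searched on both strands for ACAAAG and ACAATG, short words of the kind that SOX proteins bind, and for CTGGCAC and CTGGTAC, forms of the motif of MYRF. Shown are the windows of Mag, Mog and Opalin, the surface proteins, and that of Mal, which like that of Cldn11 held no match. Each match is in capitals, and the bases run 5′ to 3′ on the strand of the gene.
Mag, chr7:30914923-30915172, minus strand: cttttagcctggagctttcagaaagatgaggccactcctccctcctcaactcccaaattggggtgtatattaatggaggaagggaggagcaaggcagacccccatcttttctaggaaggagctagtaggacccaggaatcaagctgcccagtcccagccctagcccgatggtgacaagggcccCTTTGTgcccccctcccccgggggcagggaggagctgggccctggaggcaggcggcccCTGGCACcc
Mog, chr17:37023399-37023648, minus strand: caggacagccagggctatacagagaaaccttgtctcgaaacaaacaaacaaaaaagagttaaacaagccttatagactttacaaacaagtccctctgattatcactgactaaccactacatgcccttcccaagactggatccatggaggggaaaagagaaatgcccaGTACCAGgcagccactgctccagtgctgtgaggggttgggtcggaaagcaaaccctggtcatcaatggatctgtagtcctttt
Opalin, chr19:41077114-41077363, minus strand: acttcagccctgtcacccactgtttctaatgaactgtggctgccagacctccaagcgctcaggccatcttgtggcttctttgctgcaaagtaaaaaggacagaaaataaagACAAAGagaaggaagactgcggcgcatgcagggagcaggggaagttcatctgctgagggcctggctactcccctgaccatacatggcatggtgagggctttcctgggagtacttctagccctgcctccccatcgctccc
Mal, chr2:127656696-127656945, minus strand: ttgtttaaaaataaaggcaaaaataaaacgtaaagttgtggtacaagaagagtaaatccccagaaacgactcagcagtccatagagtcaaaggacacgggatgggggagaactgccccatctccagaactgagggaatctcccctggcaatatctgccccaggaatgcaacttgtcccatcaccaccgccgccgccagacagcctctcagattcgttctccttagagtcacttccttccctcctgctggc
The capitals in Mag are ACAAAG on the opposite strand (read as CTTTGT), 67 bases before the start, and CTGGCAC, 9 bases before it. RefSeq lists 3 starts for Mag, and the one shown is not followed by bases of a GENCODE transcript of the gene, while the other starts are. Before the second start the same matches lie at 126 and 68 bases, and the window before the third holds none. Those in Mog are CTGGTAC on the opposite strand (GTACCAG), 83 bases before the start, and those in Opalin are ACAAAG, 139 bases before it. Of the 8 windows, 5 held ACAAAG or ACAATG, against 25.0% of 32536 RefSeq windows of this length, and 3 (Cnp, Mag and Mog) held CTGGCAC or CTGGTAC, against 5.94%. Mag and Cnp held both kinds, with no overlap between matches, Mal and Cldn11 held neither, and Mobp held 6 matches to ACAAAG. These are matches of letters and are not binding sites measured here.

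Mag, Mog and Opalin are membrane proteins with a part outside the cell: Mag contacts the axon, Mog sits on the outer surface of the sheath, and Opalin is a sialylated glycoprotein of oligodendrocytes. Mag was at 59.6, 34.0 and 39.9 FPKM in the ErbB2V664E mutants, against 106, 86.4 and 115 FPKM in their controls. Every mutant lay below every control, with no library near the gap between the groups. Its log2 change was -1.22 (SE 0.20, 95% interval -1.66 to -0.77), with an adjusted p of 0.0449 in limma. Mag was the only one of 9 members called, where 0.275% of all loci were called in this comparison and 0.138% were called lower. With litter as a block its adjusted p was 0.109, and it was above the threshold when any 1 of 11 of the 12 libraries was left out (0.0619 to 0.150), the exception being the mutant of litter 4 (0.00425). The direction was the same in all of these fits. Mog was at 13.8, 6.62 and 16.9 FPKM in the ErbB2V664E mutants and 23.3, 19.3 and 29.7 FPKM in their controls. The groups again did not overlap, and the mutant of litter 5 was the lowest of the 12 libraries (log2 change -0.97, SE 0.29, adjusted p = 0.204 in limma). Opalin, at 5.32, 2.64 and 3.37 FPKM in these mutants and 6.65, 5.39 and 7.70 FPKM in their controls, was separated by a narrow margin between the mutant of litter 4 and the control of litter 5 (log2 change -0.69, SE 0.26, adjusted p = 0.314 in limma).

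**Figure D1:**
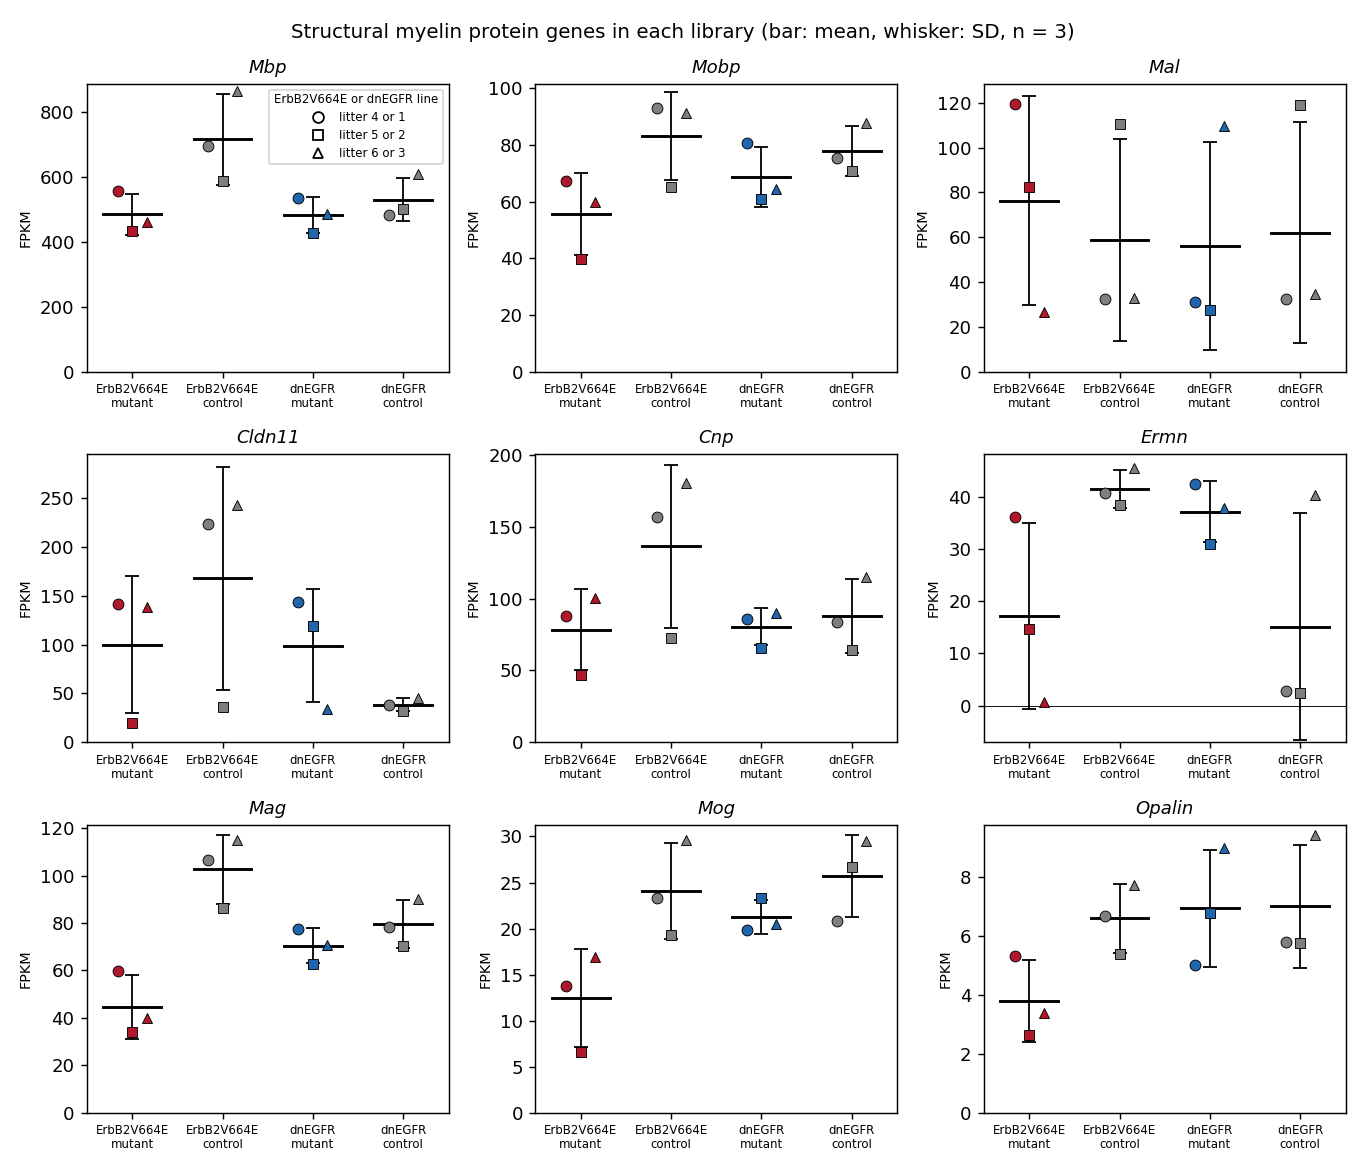
Level of each gene in each library (FPKM, linear axis) for mutants and controls of both lines; points are libraries, shapes are litters, bars are group means and whiskers are SD (n = 3). Mag lies between 34.0 and 59.6 FPKM in ErbB2V664E mutants and between 86.4 and 115 FPKM in their controls, while Mal, Cldn11 and Ermn spread widely within groups.

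In dnEGFR mutants Mag was at 77.6, 62.9 and 70.9 FPKM, against 78.3, 70.1 and 90.2 FPKM in their controls. Each mutant was below its own littermate, by ratios of 0.786 to 0.991, while the groups overlapped (log2 change -0.17, SE 0.20, adjusted p = 0.997 in limma). Mog was at 19.9, 23.3 and 20.5 FPKM in the dnEGFR mutants and 20.8, 26.6 and 29.6 FPKM in their controls, also lower in each litter and overlapping between groups (log2 change -0.25, adjusted p = 0.997 in limma). Opalin was at 5.02, 6.78 and 8.97 FPKM in these mutants and 5.80, 5.75 and 9.41 FPKM in their controls. Its litter ratios lay on both sides of 1, between 0.866 and 1.18 (log2 change -0.01, 95% interval -0.59 to 0.56).

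Mbp and Mobp encode the basic proteins that hold the cytoplasmic faces of compact myelin together. Mbp was at 557, 435 and 463 FPKM in ErbB2V664E mutants, against 695, 588 and 866 FPKM in their controls. It was the highest of the members in all 12 libraries, and in this line the mutants lay below the controls, although the mutant of litter 4 came close to the control of litter 5. The log2 change was -0.55 (SE 0.16, 95% interval -0.91 to -0.19), with an adjusted p of 0.201 in limma. Mobp was at 67.4, 39.6 and 60.0 FPKM in the ErbB2V664E mutants and 93.1, 65.2 and 91.1 FPKM in their controls. The mutant of litter 4 exceeded the control of litter 5, so the groups overlapped, yet each mutant was at 0.608 to 0.724 of its littermate (log2 change -0.59, SE 0.21, adjusted p = 0.292 in limma). The Mobp locus joins the symbols RP24-87K15.8 and RP24-87K15.6, and its value holds all of them.

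In the dnEGFR line Mbp was at 536, 427 and 487 FPKM in mutants and 484, 500 and 608 FPKM in controls, and Mobp at 80.8, 61.1 and 64.5 FPKM in mutants and 75.3, 70.7 and 87.6 FPKM in controls. Both were higher in the mutant of litter 1 and lower in the mutants of litters 2 and 3 than in their littermates. Log2 changes were -0.13 for Mbp (95% interval -0.49 to 0.23) and -0.18 for Mobp (-0.65 to 0.29). A separate locus named RP24-87K15.8 was listed at 17.2 and 21.9 FPKM in the dnEGFR mutants of litters 2 and 3 and at 22.8 FPKM in the control of litter 3, and at 0 in the other 9 libraries, and whether fragments passed between it and the Mobp locus was not tested.

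Cnp, an enzyme of the cytoplasmic channels that keeps them open, was at 87.9, 46.9 and 101 FPKM in ErbB2V664E mutants, against 157, 72.4 and 181 FPKM in their controls. Litter 5 was low in both genotypes, so that the groups overlapped, while the ratio of mutant to littermate was 0.557 to 0.647 in the 3 litters (log2 change -0.76, SE 0.38, adjusted p = 0.462 in limma). In dnEGFR mutants Cnp was at 86.2, 65.7 and 90.2 FPKM, against 83.8, 64.5 and 115 FPKM in their controls, with ratios of 1.03 and 1.02 in litters 1 and 2 and 0.782 in litter 3 (log2 change -0.10, SE 0.38).

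Cldn11, the claudin of the tight junctions between myelin turns, was at 142, 19.2 and 139 FPKM in ErbB2V664E mutants and 224, 36.2 and 243 FPKM in their controls. Both libraries of litter 5 were far below the other 4, and the highest mutant was 7.38 times the lowest. Within the litters, the mutant was nonetheless at 0.530 to 0.633 of its littermate. The log2 change was -0.78 (SE 0.92, adjusted p = 0.789 in limma). With litter 5 left out, which was chosen after seeing the data, it was -0.73 (SE 0.58), and without the mutant of litter 5 alone the sign turned (0.15). In the dnEGFR line Cldn11 was at 143, 119 and 34.1 FPKM in mutants and 37.7, 31.9 and 45.0 FPKM in controls. The mutants of litters 1 and 2 stood well above all the other libraries of that line, at 3.80 and 3.75 times their littermates, and the mutant of litter 3 was at 0.758 of its own (log2 change 1.13, SE 0.92, adjusted p = 0.987 in limma).

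Ermn, a protein that binds actin in the processes and late myelin of oligodendrocytes, was at 36.3, 14.6 and 0.731 FPKM in ErbB2V664E mutants and 40.7, 38.5 and 45.6 FPKM in their controls. The 3 mutants were spread over a 49.6-fold range below the controls, which lay within 1.18-fold of each other (log2 change -2.08, SE 1.12, adjusted p = 0.495 in limma). In dnEGFR mutants Ermn was at 42.5, 30.9 and 38.0 FPKM, against 2.75, 2.36 and 40.4 FPKM in their controls. Here the controls of litters 1 and 2 were low, their mutant littermates being at 15.5 and 13.1 times their level, and litter 3 had a ratio of 0.941 (log2 change 2.23, SE 1.12, adjusted p = 0.918 in limma). Low values of Ermn thus occurred in mutants of 1 line and controls of the other.

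Mal, a proteolipid of lipid rafts that takes part in sorting myelin proteins, was at 119, 82.6 and 26.7 FPKM in ErbB2V664E mutants and 32.5, 111 and 33.0 FPKM in their controls, and at 31.0, 27.5 and 110 FPKM in dnEGFR mutants and 32.5, 119 and 34.8 FPKM in their controls. Every group held libraries between 26.7 and 34.8 FPKM and others between 82.6 and 119 FPKM, with the highest library of a group 3.41 to 4.47 times the lowest. The log2 change was 0.38 in the ErbB2V664E line (SE 0.77) and -0.17 in the dnEGFR line (SE 0.77), and leaving out single libraries turned the sign in both.

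Such unevenness was more than most loci showed. Among loci with a group mean of 10 FPKM or more, 4.81% varied over 3-fold between the ErbB2V664E mutants, 5.03% between their controls, 7.59% between the dnEGFR mutants and 6.82% between their controls. Mal did so in all 4 groups, Cldn11 in all but the dnEGFR controls, and Ermn in the ErbB2V664E mutants and the dnEGFR controls. The Mal locus held 2 transcripts assembled by the authors beside 2 of Ensembl, whereas Cldn11 and Ermn each had 1 Ensembl transcript and no assembled one. The part of the assembly in these values was not tested.

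**Figure D2:**
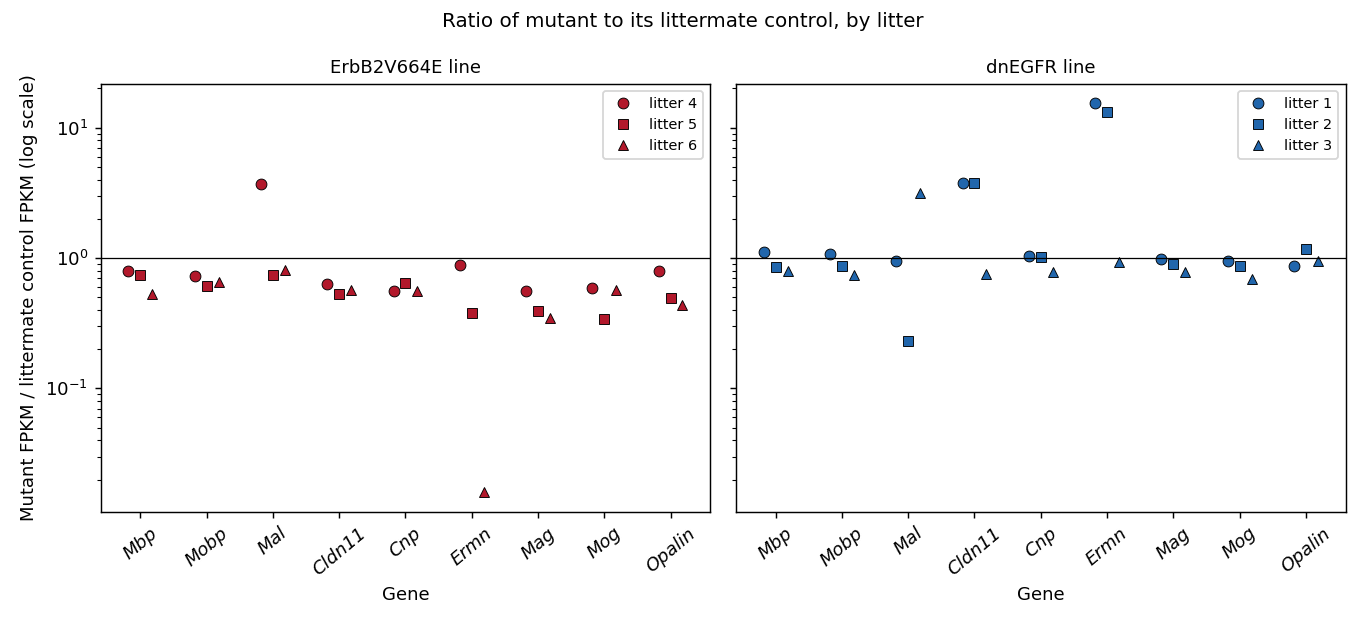
Ratio of the FPKM of each mutant to that of its littermate control (log axis) for each gene in both lines, with 1 point per litter and a line at 1. In the ErbB2V664E line 26 of 27 ratios lie below 1, the exception being Mal in litter 4 at 3.68, while in the dnEGFR line 17 of 27 do.

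Set side by side, 8 of 9 members had a negative log2 change in ErbB2V664E mutants, with a median of -0.76, where the median of all 13803 loci was 0.00. At an unadjusted p under 0.05, 5 members were lower (Mag, Mbp, Mog, Mobp and Opalin) and none was higher, where 6.24% of all loci were lower and 12.1% differed in either direction. Every mutant was below every control for 5 members (Mbp, Ermn, Mag, Mog and Opalin), against 8.96% of all loci. The mutant was below its littermate in all 3 litters for 8 members, all but Mal, against 16.8% of all loci. The median ratio of mutant to littermate over the 9 genes was 0.724 in litter 4, 0.530 in litter 5 and 0.557 in litter 6. Since the genes are expressed by the same cells and measured in the same libraries, these counts are not 9 independent observations. The members were also chosen with earlier results of these data known, so the shares of all loci describe the background and do not test the list.

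In dnEGFR mutants 7 of 9 members had a negative log2 change, with a median of -0.13, where the median of all loci was 0.01. None was called by limma, none had an unadjusted p under 0.05, and adjusted p-values ran between 0.918 and 1, where 0.0942% of loci were called and 5.69% had an unadjusted p under 0.05. No member had every mutant below or every mutant above every control, where 4.57% and 5.58% of loci did. Mag and Mog were lower in the mutant of each litter, 2 of 9 members against 11.6% of loci. The 95% intervals of the log2 changes were wide for several genes, at -0.94 to 0.75 for Cnp and -1.89 to 1.55 for Mal. Median ratios over the 9 genes were 1.03, 0.896 and 0.786 in litters 1, 2 and 3.

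**Figure D3:**
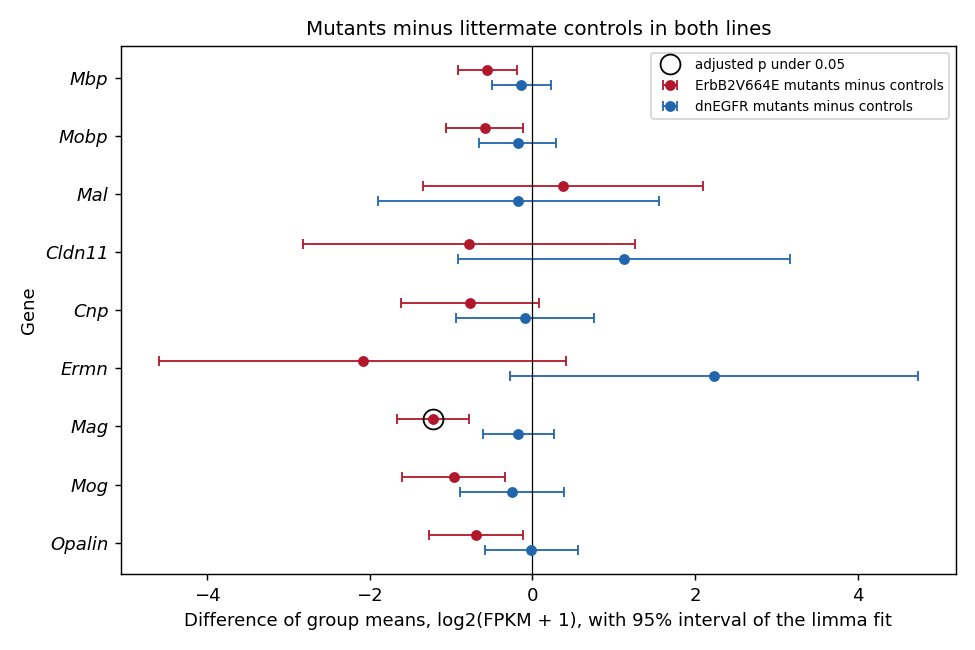
Difference between mutants and controls in mean log2(FPKM + 1) for each gene in both lines; points are the estimates and bars the 95% intervals of the limma fit over 12 libraries. The circled point is Mag in the ErbB2V664E line at -1.22, and the widest intervals belong to Ermn, Cldn11 and Mal.

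The difference between the lines' changes, ErbB2V664E minus dnEGFR, was tested directly. No member passed the threshold in limma, where 0.116% of all loci did. At an unadjusted p under 0.05 there were 2 members, Mag and Ermn, both more negative in the ErbB2V664E line, where 9.01% of all loci differed in either direction and 4.77% were more negative. The difference was -1.05 for Mag (SE 0.28, adjusted p = 0.352 in limma) and -4.32 for Ermn (SE 1.59, adjusted p = 0.484 in limma). That of Mag rested on changes of -1.22 and -0.17, and that of Ermn on low libraries in the mutants of 1 line and the controls of the other. For the other members it lay between -1.91 (Cldn11) and 0.55 (Mal), with adjusted p of 0.606 to 0.909.

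To see whether the members kept their proportions, each was divided by Mbp within the library, which takes out any change common to both. The ratio of Mag to Mbp was 0.107, 0.0783 and 0.0863 in ErbB2V664E mutants and 0.153, 0.147 and 0.133 in their controls. The mutants were all below the controls, with a difference of log2 ratios of -0.68. The exact two-sided permutation p was 0.1, the smallest that 3 against 3 can give, and 0.8 after adjustment over 16 ratios. A change of Mag relative to Mbp was thus not established. In the dnEGFR line the ratio was 0.145, 0.147 and 0.146 in mutants and 0.162, 0.140 and 0.148 in controls. The ratio of Mog to Mbp was 0.0248, 0.0152 and 0.0365 in ErbB2V664E mutants and 0.0335, 0.0328 and 0.0342 in their controls, where the mutant of litter 6 was above all 3 controls. The ratio of Mobp to Mbp was 0.114 ± 0.0202 in ErbB2V664E mutants and 0.117 ± 0.0152 in their controls (SD, n = 3 each), a difference within the spread. Of the 16 ratios, Ermn to Mbp in the dnEGFR line was the other one that did not overlap (exact permutation p = 0.1, adjusted 0.8), and the remaining 14 had exact permutation p of 0.2 to 0.9. Where groups do not differ, 3 against 3 fail to overlap with a probability of 0.1. The share of all loci whose ratio to Mbp did not overlap was not computed.

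**Figure D4:**
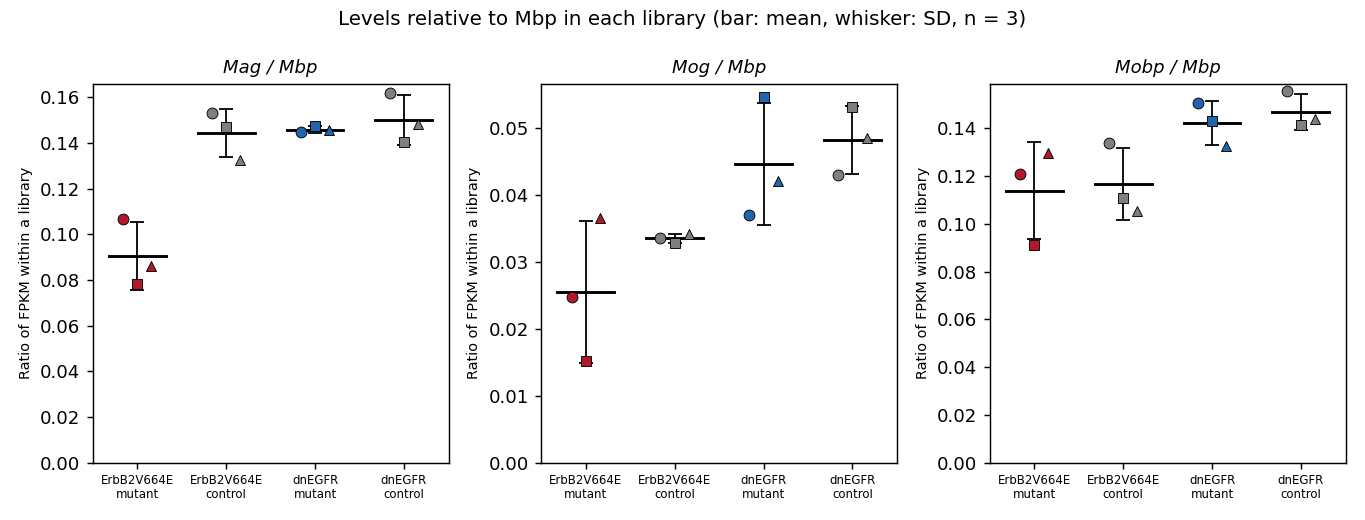
Level of Mag, Mog and Mobp divided by that of Mbp in the same library (ratio of FPKM, linear axis); points are libraries, shapes are litters, bars are means and whiskers are SD (n = 3). The Mag ratio lies between 0.0783 and 0.107 in ErbB2V664E mutants, against 0.133 to 0.153 in their controls, and between 0.140 and 0.162 in the dnEGFR line.

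Together the 9 members summed to 1088, 681 and 850 FPKM in ErbB2V664E mutants, against 1378, 1022 and 1611 FPKM in their controls. The mutant of litter 4 was above the control of litter 5, while each mutant was below its littermate. In dnEGFR mutants the sum was 1023, 824 and 924 FPKM, against 821, 891 and 1060 FPKM in their controls. The sum was 0.512% to 0.826% of all FPKM in ErbB2V664E mutants, 0.785% to 1.24% in their controls, 0.655% to 0.868% in dnEGFR mutants and 0.690% to 0.883% in their controls. Mbp alone made up 50.4% to 63.9% of the members' sum. In the order of mean levels Mbp came first and apart from the next gene in all 4 groups, and Opalin came last in all 4. Cldn11, Cnp, Mag, Mobp and Mal filled the middle ranks, where neighbours overlapped in every group, with the exception of Cldn11 and Mog next to each other in the dnEGFR controls. Mog lay apart from Opalin in the ErbB2V664E mutants, in their controls and in the dnEGFR mutants, and in the dnEGFR controls Opalin overlapped Ermn.

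Across the 12 libraries the members other than Mal were positively correlated with each other, with Pearson's r of log2(FPKM + 1) between 0.123 (Ermn and Mog) and 0.895 (Mobp and Mag) over 28 pairs. Mal had r of -0.559 to 0.0728 with the others. These values describe libraries that share their depth, their tissue piece and the grouping. Of 5224 loci with a mean of 5 FPKM or more, the 8 whose levels were most like the members' mean were Clic4, Gatm, Plekhb1, Trak2, Traf3, Sh3gl3, the locus joining Sema4d and Gm15440, and Unc5b, with r of 0.903 to 0.954. With the group means removed, r over these libraries, which also chose the loci, was 0.814 to 0.945. Gatm, which encodes an enzyme of creatine synthesis, was at 13.6 to 19.9 FPKM in ErbB2V664E mutants and 22.9 to 27.7 FPKM in their controls (log2 change -0.67, adjusted p = 0.135 in limma). Sema4d, a semaphorin gene, was at 4.91 to 7.95 FPKM in ErbB2V664E mutants and 10.8 to 14.6 FPKM in their controls at its joined locus. It was the 1 of these 8 that was called (log2 change -0.97, adjusted p = 0.0407 in limma), where 0.275% of all loci were called. The members were themselves mostly lower in these mutants. Lower values of loci chosen by their likeness to the members therefore follow in part from the choice and are not separate support.

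Other myelin genes were read beside the members. Of 35 tested genes of other structural and surface myelin proteins, 1 fell and none rose in ErbB2V664E mutants, 28 had a negative log2 change and the median was -0.32. At an unadjusted p under 0.05 there were 13 lower and 0 higher. Of all loci in this comparison, 49.0% had a negative log2 change and 6.24% were lower at this unadjusted p. The test called 0.275% of all loci in either direction and 0.138% as lower. The gene that fell was Gsn, the actin-severing protein gelsolin, at 11.4, 8.13 and 9.01 FPKM in mutants and 26.7, 18.6 and 30.1 FPKM in controls (log2 change -1.30, SE 0.17, adjusted p = 0.0159 in limma). Of 25 tested genes of myelin enzymes and transport, 4 fell and none rose, 22 were negative and the median was -0.63. At an unadjusted p under 0.05 there were 13 lower and 2 higher. Those that fell were the protease Klk6 (log2 change -2.09, adjusted p = 0.000587 in limma), Gamt, the last enzyme of creatine synthesis (-1.19, 0.0437), Enpp6, a choline-specific phosphodiesterase (-1.04, 0.0464), and Plxnb3, a semaphorin receptor at a locus joined with Srpk3 (-0.89, 0.0433). Ptgds, the prostaglandin D synthase, went the other way without passing, at 120, 191 and 221 FPKM in mutants and 36.3, 49.0 and 41.9 FPKM in controls (log2 change 2.00, adjusted p = 0.0585 in limma), and the other of the 2 higher was Apod, which encodes the lipid carrier apolipoprotein D (log2 change 0.86, adjusted p = 0.347 in limma). Of 11 tested oligodendrocyte transcription factors none passed in limma, 7 were negative (median -0.37), and 4 lower and 1 higher had an unadjusted p under 0.05. Sox10 was at 14.8 to 16.4 FPKM in mutants and 22.3 to 29.8 FPKM in controls. The 1 higher was Olig1, at 59.0, 55.1 and 48.0 FPKM in mutants and listed at 0 in all 3 controls (adjusted p = 0.0748 in limma), and in the dnEGFR line it was listed at 0 in all libraries but the control of litter 1, at 35.4 FPKM. The summed level of this list was 113 to 121 FPKM in mutants and 76.5 to 90.9 FPKM in controls. Olig1 gave 48.0 to 59.0 FPKM of the sum in mutants and 0 in controls. The higher sum in mutants thus rested on that gene, and without it each mutant's sum lay below those of the controls. Of 15 precursor genes none passed in limma and 3, all lower, had an unadjusted p under 0.05 (median -0.11). Of 18 genes of newly formed oligodendrocytes 1 fell, which was Enpp6 again, and 17 were negative (median -0.45). At an unadjusted p under 0.05 there were 10 lower and 0 higher in this list.

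In dnEGFR mutants the median log2 changes of these lists were -0.14 for structural and surface genes, -0.11 for enzymes and transport, -0.02 for transcription factors, -0.06 for precursor and -0.10 for newly formed oligodendrocyte genes. Klk6 was the only gene of these lists that fell, at 1.47, 1.86 and 1.94 FPKM in mutants and 5.16, 5.43 and 5.29 FPKM in controls (log2 change -1.20, SE 0.17, adjusted p = 0.0293 in limma). Of the 101 genes of these 5 lists, 1 was called in this line, against 0.0942% of all loci. Among the same genes, 11 had an unadjusted p under 0.05 in this line, against 5.69% of all loci. In the ErbB2V664E line 43 of them did, against 12.1% of all loci, and 5 were called, against 0.275%. The difference between the lines was called for 0 of the 101 genes in limma. For 26 it had an unadjusted p under 0.05, against 9.01% of all loci.

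Marker genes of some other cell types also had lower values in the ErbB2V664E mutants. Summed over 5 haemoglobin and red cell genes, levels were 118, 32.5 and 22.1 FPKM in mutants and 143, 95.5 and 214 FPKM in controls, with none called in limma and all 5 lower at an unadjusted p under 0.05 (median log2 change -1.57). Summed over 16 microglial genes they were 157, 106 and 99.0 FPKM in mutants and 177, 158 and 196 FPKM in controls, with none called in limma and 9 lower at an unadjusted p under 0.05 (median -0.47). In both lists the mutant of litter 4 had the highest sum among the mutants. It was also the highest mutant for Mbp, Mobp, Mal, Cldn11, Ermn, Mag and Opalin. Cldn11 was nearly equal in the mutants of litters 4 and 6, and Mal in the mutant of litter 4 exceeded all controls. For Cnp and Mog the mutant of litter 6 was the highest. Of 11 astrocyte genes 7 were negative (median -0.14), and of 14 neuronal genes 5 were (median 0.04). None was called in either, and 3 and 2 of them were lower at an unadjusted p under 0.05, where 6.24% of all loci were. Astrocyte sums, over 12 genes, were 365 to 413 FPKM in mutants and 440 to 592 FPKM in controls. Slc1a2 stood at 229 FPKM in the control of litter 4 and at 38.7 to 67.3 FPKM in mutants. S100b was at 5.31 to 10.6 FPKM in mutants and 13.0 to 50.2 FPKM in controls. Without Slc1a2 and S100b the astrocyte sums of mutants and controls overlapped. Neuronal sums were 921 to 949 FPKM in mutants and 883 to 946 FPKM in controls. Endothelial sums were higher in mutants, at 60.3 to 65.4 FPKM against 46.7 to 55.7 FPKM, with Cldn5 listed at 0 in the control of litter 6. Choroid plexus sums ran between 12.2 and 642 FPKM in mutants and 247 and 571 FPKM in controls (median of 6 genes -0.65), and Schwann cell sums between 11.1 and 18.3 FPKM in mutants and 22.2 and 23.8 FPKM in controls (median of 4 genes -0.46). Of 10 endothelial genes 1 rose, Vwf, where 0.275% of all loci were called, and the median was 0.10. The 11 striatal and 5 ependymal genes had medians of -0.17 and -0.41, with none called in limma. Of them, 0 and 3 were lower at an unadjusted p under 0.05. In dnEGFR mutants the medians of the haemoglobin, microglial and striatal lists were 0.46, 0.06 and 0.55. Pdyn, an opioid precursor gene of striatal neurons, was called lower, where 0.0942% of all loci were called in that line. The part of tissue makeup in the members' levels was not tested.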

How the data were processed

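Polyadenylated RNA of 12 mice was measured in 4 groups of 3, assigned by the genotype labels. The deposited values are FPKM, computed by the authors with StringTie, as the series' design text says. HISAT is also named, per the submitters' processing notes. The sources used here give no version, genome build or annotation. A strand-keeping step is not among the labels' protocols, and genes that overlap on opposite strands may share fragments.

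Depth was estimated from 14221 loci with 1 transcript, by taking their most frequent low value, corrected for transcript length, as 1 fragment. Only 38.5% to 41.5% of low values fell on such steps (tolerance 0.01 of a fragment), so no count test was run. The main test was limma (version 3.58.1, R version 4.3.3) on log2(FPKM + 1), with 1 mean per group over 12 libraries, empirical Bayes with a variance trend (8 residual and 2.03 prior degrees of freedom) and two-sided p adjusted by Benjamini and Hochberg over 13803 loci, at a threshold of 0.05. Fold changes on this scale understate the change of low genes. The procedure was tested on simulated data, in which the largest spreads were capped and changes were placed in well expressed genes only. That run does not cover genes as uneven as Mal, Cldn11 and Ermn, or low genes. Ratios to Mbp were compared by exact permutation. Each mouse is 1 library, so p-values reflect the spread between mice. Python 3.11.15 was used for tables (pandas 2.3.3, numpy 2.4.6) and figures (matplotlib 3.10.9).

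The members and the gene lists were chosen with earlier results of these data known. All members are named, with list genes that passed the test or had the largest changes of their list, and the 8 loci most like the members. Some list genes enter the counts but are not reported here by name. Pairing by litter comes from the labels, which name the control of each mutant; deviations from the group means correlated by -0.0253 to 0.0326 within litters. Alternatives were the pseudocount, the filter, the scaling, the groups in the fit, the litter block, the variance trend, the sum of a symbol's loci and leaving out each library. Promoter sequences are from RefSeq, GRCm38.p6.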

Additional observations from a re-analysis of the deposited data

How the results depend on the processing

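In the ErbB2V664E line 188 of 207 alternative values of the 9 members kept their direction and their side of the threshold. The call of Mag was kept in 6 of 23 alternatives, with a log2 change of -1.44 to -1.05 when single libraries were left out and -1.26 to -1.16 otherwise. The number of members called was 0 in place of 1 with no filter, with a filter of 5 FPKM, with scaling by median ratio, with the 2 groups alone, with litter as a block and without litter 5, an alternative chosen after seeing the data, and 0 to 1 with single libraries left out. The number of loci called was 7 with the filter of 5 FPKM, 23 with the 2 groups alone, 7 with litter as a block, 18 without litter 5 and 16 to 262 with single libraries left out, in place of 38; the 262 came without the mutant of litter 4. In the dnEGFR line 191 of 198 values were kept and no member was called in any alternative; loci called were 22 with the 2 groups alone, 3 with litter as a block and 9 to 36 with single libraries left out, in place of 13. The block changed no other member's call. Signs turned with single libraries left out, for Mal (-0.063 to 1.00) and Cldn11 (-1.67 to 0.15) in the ErbB2V664E line, for Mal (-0.79 to 0.43), Opalin (-0.19 to 0.20) and Cnp (-0.30 to 0.12) in the dnEGFR line, and for Mal in the difference between lines (-0.050 to 1.17), none of which was called; the cause was not tested. The difference could not be fitted with the 2 groups alone. Ratios to Mbp that did not overlap numbered 2 to 4 with single libraries left out, in place of 2; pseudocount, filter, trend, scaling and block do not enter them. Opalin had the lowest group means and Ermn the lowest single values.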
